A study of Bos taurus with 38 samples.

Results

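The genes PRKAG3, SLC2A4 and PFKFB4, which act in energy sensing and glucose handling of skeletal muscle, were followed in *Longissimus dorsi* muscle of newborn beef calves whose dams had received organic selenium (Se) in different trimesters of pregnancy. The genes were chosen by name and make up 3 of the 27607 genes in the count table, and all 3 of them passed the filter on low counts that left 12964 genes for testing. The study had named each of them from the muscle of these same calves, so their levels here are not independent evidence for its choice. Muscle RNA of 38 calves had been sequenced, 1 library per calf. The dams were Angus and Angus-cross cows aged 5 to 9 years. In the control group (CTR, 4 females and 6 males) they received no Se-yeast. In TR1 (2 females and 7 males), TR2 (3 females and 7 males) and TR3 (5 females and 4 males) they received 3 Se-yeast boluses per week, equal to 105 mg Se/wk, for 13 weeks of the first, the second or the third trimester, respectively. Inorganic Se (sodium selenite, in the mineral mix) was offered to the dams of all 4 groups, so CTR stands for no added Se-yeast and not for an absence of added Se. Each treated group was set against the same 10 CTR calves, so the comparisons with CTR share those calves and are given side by side.

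AMP-activated protein kinase (AMPK) is the kinase that cells switch on when AMP rises and ATP falls, and it is built of a catalytic alpha, a scaffolding beta and a nucleotide-binding gamma subunit. PRKAG3 encodes the gamma 3 subunit, which is found mainly in fast glycolytic skeletal muscle, and changes in this gene are known to alter muscle glycogen and meat quality in pigs. SLC2A4 encodes GLUT4, the glucose transporter that moves to the muscle surface in response to insulin and contraction. PFKFB4 encodes one of the enzymes that make and break down fructose 2,6-bisphosphate, the signal molecule that activates phosphofructokinase and so speeds glycolysis. In the RefSeq annotation of the ARS-UCD2.0 assembly, PRKAG3 lies between CYP27A1 and WNT6 and is overlapped by the non-coding gene LOC101906064, SLC2A4 lies between CLDN7 and YBX2, and PFKFB4 lies between UCN2 and SHISA5. The libraries were strand-specific, but which strand column was counted is not given in the sources used here, so reads of PRKAG3 and of the gene that overlaps it could not be told apart.

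The libraries held between 12921223 and 17471666 counts assigned to genes. Expression is given as CPM, the counts of a gene relative to the library total after scaling by the trimmed mean of M-values (TMM). At this depth PRKAG3 was covered by 157 to 1937 reads per calf, SLC2A4 by 1023 to 3797 and PFKFB4 by 589 to 3800, so counting error was small beside the spread between calves. Muscle genes dominated the samples, with a summed level of the 9 fast fibre markers between 17929 and 99209 CPM, against 24.6 to 276 CPM for the 4 leukocyte markers and 1.77 to 42.5 CPM for the 3 adipocyte markers. In 5 calves, however, MYH1, the fast IIx myosin heavy chain, was low beside the other calves. CTR calves A2034 and A2035, TR1 calves A2040 and A2052 and TR3 calf A2033 had 615 to 1274 CPM, whereas the other 33 calves had at least 5894 CPM. NAMPT, an enzyme of NAD salvage, stood between 289 and 635 CPM in 4 calves (A2052 of TR1 and A2099, A2100 and A2023 of TR2) and at 130.0 CPM or less in the others. Both sets were noticed in the data, and results are given with and without them where they matter. In tissue RNA, fewer cells of a type and less RNA per cell cannot be told apart.

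The 3 genes differed in how much they varied from calf to calf. PRKAG3 ranged from 9.60 to 126 CPM over the 38 calves, a 13.2-fold range. PFKFB4 ranged from 38.7 to 274 CPM, a 7.09-fold range, and SLC2A4 from 80.2 to 232 CPM, a 2.89-fold range. Single calves set the ends of these ranges. The lowest PRKAG3 value was that of A2040, and the next was 15.6 CPM (A2035). The highest PFKFB4 value was that of A2099, and the next was 168 CPM (A2090). The biological coefficient of variation within treatment groups, as edgeR estimated it after dam age and sex, was 50.4% for PRKAG3, 38.5% for PFKFB4 and 23.5% for SLC2A4, where the median gene had 24.7%. PRKAG3 was thus more variable than 90.9% of the genes tested and PFKFB4 more than 80.1%, whereas SLC2A4 was close to the middle. The order of PRKAG3 and PFKFB4 depended on the calves with little MYH1. Without them the coefficient of variation of CPM across groups fell from 46.7% to 35.3% for PRKAG3. For PFKFB4 it went from 44.8% to 42.6%, and for SLC2A4 from 21.7% to 18.8%.

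**Figure D1:**
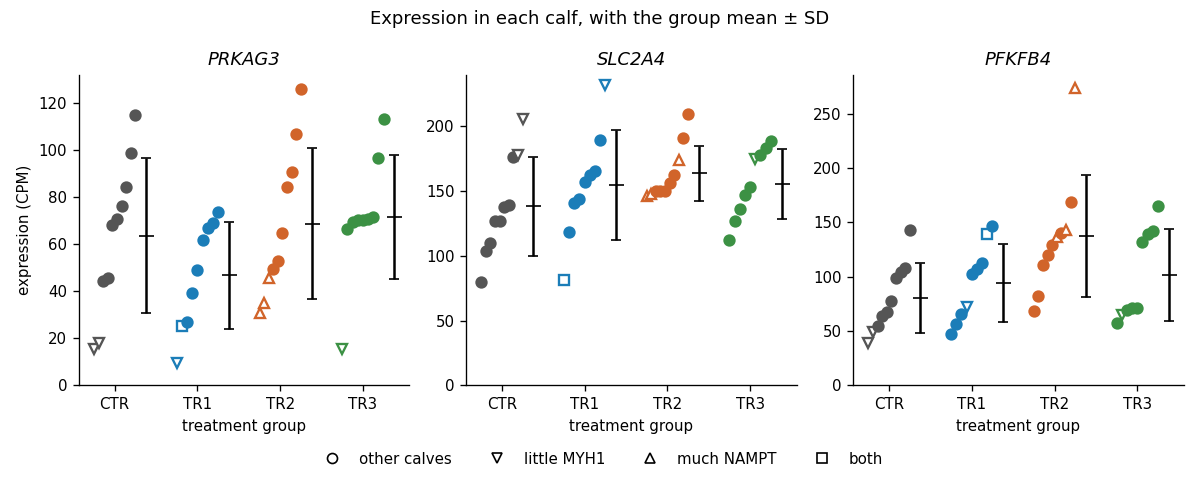
Expression of PRKAG3, SLC2A4 and PFKFB4 (CPM, linear axis from 0) in each of the 38 calves by treatment group, with the mean ± SD of each group beside its points. Open symbols mark the 5 calves with little MYH1 and the 4 with much NAMPT. The calves with little MYH1 hold the lowest PRKAG3 values, from 9.60 to 25.2 CPM, and TR2 calf A2099 holds the highest PFKFB4 value, 274 CPM.

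For PRKAG3 (ENSBTAG00000013492), no comparison between groups passed an adjusted p of 0.05, and the calves that stood lowest were the ones with little MYH1 beside the others. In CTR the lowest, median and highest calf had 15.6, 69.6 and 115 CPM. In TR1 these values were 9.60, 49.1 and 73.6 CPM, and in TR2 they were 31.0, 59.0 and 126 CPM. In TR3 they were 15.6, 70.5 and 113 CPM. The groups overlapped throughout, and the group that sat low was TR1, where 1 of 9 calves exceeded the CTR median. The group means were 63.8 ± 32.8 CPM in CTR (SD, n = 10), 46.9 ± 22.8 in TR1 (n = 9), 68.8 ± 32.0 in TR2 (n = 10) and 71.7 ± 26.3 in TR3 (n = 9).

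In TR1 vs. CTR the log2 fold change of PRKAG3 was -0.34 (SE 0.35) and the 95% interval of the fold change ran from 0.482 to 1.29, with an adjusted p of 1.00 in edgeR's quasi-likelihood test. In TR2 vs. CTR it was 0.13 (SE 0.33, adjusted p = 0.924) and in TR3 vs. CTR 0.23 (SE 0.36, adjusted p = 1.00). Leaving out 1 calf moved the value in TR3 to between 0.12 (without A2034) and 0.39 (without A2033), and in TR1 to between -0.49 (A2035) and -0.13 (A2042). The sign was thus negative in TR1 and positive in TR2 and TR3, and the contrast between treated groups is the test of that difference. TR3 vs. TR1 gave a log2 fold change of 0.57 (SE 0.38, adjusted p = 0.886) and TR2 vs. TR1 one of 0.47 (SE 0.34, adjusted p = 0.869), and no step in the order TR1, CTR, TR2, TR3 of the means passed the test. TR3 vs. TR2 was 0.10 (SE 0.37, adjusted p = 0.947). Over the alternatives TR2 vs. TR1 ran from 0.27 to 0.64 (0.31 without A2066), TR3 vs. TR1 from 0.40 to 0.78 and TR3 vs. TR2 from -0.18 to 0.32.

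The 5 calves with little MYH1 had 17.9 and 15.6 CPM of PRKAG3 (CTR), 9.60 and 25.2 CPM (TR1) and 15.6 CPM (TR3). These were the lowest 5 of the 38 values, and the next lowest was 27.1 CPM in TR1 calf A2067, whose MYH1 was also the lowest of the other 33 calves. Without those 5 calves the group means were 75.5 ± 24.3 CPM in CTR (n = 8), 55.3 ± 17.3 in TR1 (n = 7), 68.8 ± 32.0 in TR2 (n = 10) and 78.7 ± 16.9 in TR3 (n = 8). The log2 fold change was then -0.43 (SE 0.26) in TR1, turned to -0.16 (SE 0.23) in TR2 and was 0.16 (SE 0.25) in TR3, with adjusted p-values of 1.00, 0.927 and 1.00 in edgeR. The direction in TR2 thus changed with these calves, and it also turned when A2035 alone was left out, to -0.02. PRKAG3 in the TR2 calves with much NAMPT was 45.7 CPM (A2099), 35.3 CPM (A2100) and 31.0 CPM (A2023), the lowest 3 of their group, and without the 4 calves with much NAMPT the log2 fold change in TR2 was 0.39 (SE 0.35). The part of either set of calves in the group differences was not tested.

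For SLC2A4 (ENSBTAG00000009190), no comparison passed either, but the TR2 calves lay together at the upper side of CTR. In CTR the lowest, median and highest calf had 80.2, 132 and 206 CPM. In TR1 these values were 81.1, 157 and 232 CPM. In TR2 they were 146, 153 and 209 CPM, and in TR3 113, 153 and 189 CPM. All 10 TR2 calves were above the CTR median, and the lowest of them was above 7 of the 10 CTR calves, though the ranges overlapped. In TR1 and in TR3, 7 of 9 calves were above the CTR median.

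The means of SLC2A4 were 138 ± 38.2 CPM in CTR (SD, n = 10), 155 ± 42.5 in TR1 (n = 9), 164 ± 21.4 in TR2 (n = 10) and 156 ± 27.0 in TR3 (n = 9). The log2 fold change was 0.15 (SE 0.15) in TR1, 0.24 (SE 0.15) in TR2 and 0.17 (SE 0.16) in TR3, and edgeR's adjusted p was 1.00, 0.643 and 1.00. In TR2 the 95% interval of the fold change was 0.961 to 1.45. Leaving out 1 calf gave 0.07 (without A2040) to 0.24 (without A2035) in TR1 and 0.17 (A2088) to 0.35 (A2035) in TR2, and in TR3 0.11 (A2088) to 0.23 (A2065). Between treated groups the log2 fold changes were 0.09 in TR2 vs. TR1, 0.02 in TR3 vs. TR1 and -0.07 in TR3 vs. TR2, with adjusted p-values of 0.949, 0.996 and 0.900 in edgeR. Over the alternatives TR2 vs. TR1 ran from -0.03 to 0.18 (0.0086 without A2052), TR3 vs. TR1 from -0.18 to 0.11 and TR3 vs. TR2 from -0.27 to -0.0053 (-0.0061 without A2065), and the lowest adjusted p of these was 0.618. No step between neighbours in the order CTR, TR1, TR3, TR2 of the means passed the test.

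The calves with little MYH1 weighed on SLC2A4 in the other direction than on PRKAG3, except for 1 of them. CTR calves A2034 and A2035 had 178 and 206 CPM, the highest 2 of their group. TR1 calf A2040 had 232 CPM, the highest of all 38, and TR3 calf A2033 had 175 CPM, while TR1 calf A2052, which had much NAMPT as well, had 81.1 CPM, the lowest of its group. Without the 5 calves the CTR mean fell to 125 ± 28.4 CPM (n = 8), against 154 ± 22.4 in TR1 (n = 7), 164 ± 21.4 in TR2 and 153 ± 27.9 in TR3 (n = 8). The log2 fold change was then 0.36 (SE 0.12, unadjusted p = 0.00463, adjusted p = 1.00) in TR1 and 0.46 (SE 0.11, unadjusted p = 0.000211, adjusted p = 0.394) in TR2 in edgeR's test. Of all 13065 genes in that fit, 377 in TR1 vs. CTR and 784 in TR2 vs. CTR had an unadjusted p under 0.05. With these calves left out, the lowest TR2 calf was above 7 of the 8 CTR calves that remained. In TR3 the value stayed at 0.18 (SE 0.12, adjusted p = 1.00). Neither TR1 nor TR2 passed the adjusted threshold in that fit, and the part of these calves in the difference was not tested.

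For PFKFB4 (ENSBTAG00000006752), the TR2 calves had the highest level, and TR2 vs. CTR was the comparison in which any of the 3 genes came nearest to the threshold. In CTR the lowest, median and highest calf had 38.7, 72.3 and 143 CPM. In TR1 they had 47.2, 103 and 146 CPM. In TR2 they had 68.4, 133 and 274 CPM, and in TR3 57.6, 71.6 and 165 CPM. The ranges overlapped, with 9 of 10 TR2 calves, 6 of 9 TR1 calves and 4 of 9 TR3 calves above the CTR median. Within TR3 the calves fell into a lower set of 5 between 57.6 and 71.6 CPM and an upper set of 4 between 132 and 165 CPM.

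The means of PFKFB4 were 80.5 ± 32.5 CPM in CTR (SD, n = 10), 94.5 ± 35.8 in TR1 (n = 9), 137 ± 56.3 in TR2 (n = 10) and 101 ± 42.1 in TR3 (n = 9). In TR2 vs. CTR the log2 fold change was 0.79 (SE 0.25), a 1.74-fold higher level with a 95% interval of 1.21 to 2.48, and edgeR gave an unadjusted p of 0.00348 and an adjusted p of 0.497. PFKFB4 ranked 85 of the 12964 genes by p in that comparison, where 8.34% of all genes had an unadjusted p under 0.05. In TR1 vs. CTR the log2 fold change was 0.20 (SE 0.26, adjusted p = 1.00) and in TR3 vs. CTR 0.28 (SE 0.27, adjusted p = 1.00). Leaving out 1 calf moved the value in TR1 to between 0.08 (without A2092) and 0.35 (without A2038), and in TR3 to between 0.08 (A2065) and 0.41 (A2038). TR2 vs. TR1 gave 0.59 (SE 0.26, adjusted p = 0.799), TR3 vs. TR2 -0.51 (SE 0.28, adjusted p = 0.547) and TR3 vs. TR1 0.08 (SE 0.27, adjusted p = 0.980). Over the alternatives these ran from 0.42 to 0.73, from -0.72 (without A2065) to -0.19 (only the 2 groups compared) and from -0.09 to 0.35. When all 4 groups were compared in 1 test, edgeR gave PFKFB4 an adjusted p of 0.817, PRKAG3 0.939 and SLC2A4 0.937.

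TR2 calf A2099 alone had 274 CPM of PFKFB4, and the next calf of its group had 168 CPM. Without A2099 the log2 fold change in TR2 vs. CTR was 0.62. The 3 TR2 calves with much NAMPT had 143, 274 and 137 CPM of PFKFB4, and the TR1 calf with much NAMPT had 140 CPM. Without these 4 calves the TR2 mean was 117 ± 33.9 CPM (n = 7) and the log2 fold change 0.56 (SE 0.26, adjusted p = 1.00). Without the 5 calves with little MYH1, whose PFKFB4 in CTR was 48.9 and 38.7 CPM, it was likewise 0.56 (SE 0.26, adjusted p = 0.806), and in TR1 vs. CTR it turned from 0.20 to -0.05. In TR2 the direction was the same in each of these fits, and the part of these calves in the difference was not tested. The 6 fibroblast and vessel markers summed to 362 to 662 CPM in TR2 (median 573) and to 469 to 1210 CPM in CTR (median 692), and in TR2 vs. CTR 5 of the 6 had negative log2 fold changes and VWF a positive one, each with an unadjusted p under 0.05 and an adjusted p of 0.507 or more in edgeR, where 8.34% of all genes had an unadjusted p under 0.05. In the 4 calves with much NAMPT the sum was 297 to 424 CPM and in the other 34 it was 425 to 1265 CPM, and the lowest 3 values of TR2, 362, 366 and 424 CPM, were those of A2100, A2023 and A2099. Their part in the PFKFB4 difference was not tested.

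**Figure D2:**
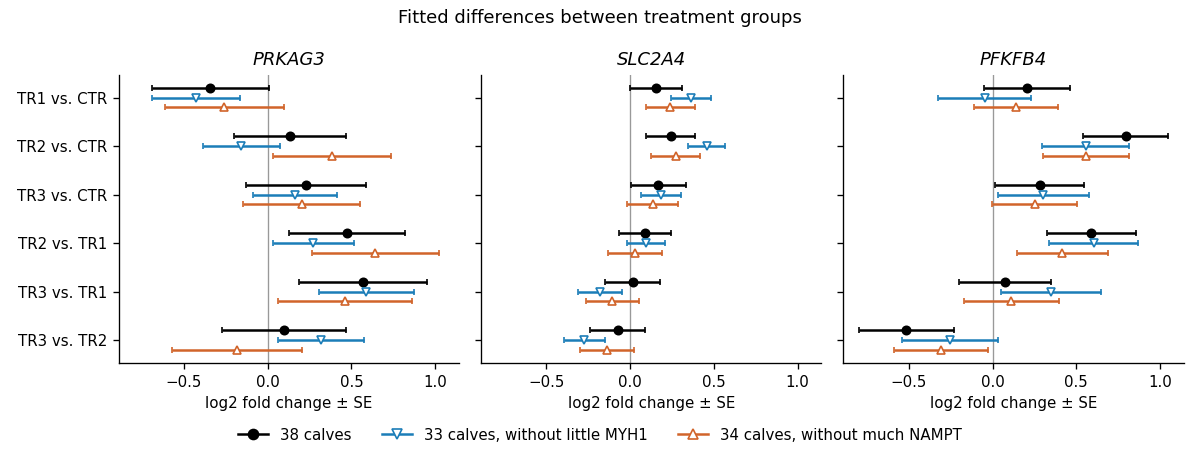
Fitted log2 fold changes (± SE) of the 3 genes in the 6 comparisons between treatment groups, from all 38 calves (filled circles), from 33 calves without those with little MYH1 (downward triangles) and from 34 calves without those with much NAMPT (upward triangles). PFKFB4 in TR2 vs. CTR lies at 0.79, 0.56 and 0.56, and SLC2A4 in TR2 vs. CTR moves from 0.24 to 0.46 without the calves with little MYH1.

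Across all genes tested, no gene passed an adjusted p of 0.05 with edgeR in any of the 6 comparisons between treatment groups (0% each), and DESeq2 called 1 gene in TR2 vs. CTR and 0 in the other 5. Likewise no member passed. At an unadjusted p under 0.05 edgeR held 331 genes in TR1 vs. CTR (2.55%), 1081 in TR2 vs. CTR (8.34%) and 175 in TR3 vs. CTR (1.35%). It held 797 in TR2 vs. TR1 (6.15%), 758 in TR3 vs. TR1 (5.85%) and 1227 in TR3 vs. TR2 (9.46%). Of the members, PFKFB4 was among them in TR2 vs. CTR and in TR2 vs. TR1, and neither PRKAG3 nor SLC2A4 was in any. Leaving out 1 calf moved these counts. They ran from 224 (A2052) to 462 (A2057) in TR1 vs. CTR. In TR2 vs. CTR they ran from 692 (A2100) to 1459 (A2068) and in TR3 vs. CTR from 153 (A2065) to 268 (A2033). The ranges were 518 (A2100) to 1355 (A2052) in TR2 vs. TR1 and 450 (A2052) to 1069 (A2033) in TR3 vs. TR1. In TR3 vs. TR2 the range was 794 (A2023) to 1718 (A2068). The test for any difference among the 4 groups also called 0 genes (0%), with 790 under an unadjusted p of 0.05 and 0 calls by DESeq2.

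The study had listed its genes by another method, the test of the package CeTF on variance-stabilised expression, with limits on an adjusted p and on the fold change, and its methods do not spell out the formula. As a description, the difference of group means of variance-stabilised expression was here centred on its mean over all genes and divided by its standard deviation over all genes, which does not take the spread between calves into account. On this scale PRKAG3 stood at -2.56 in TR1, 1.09 in TR2 and 2.09 in TR3. PFKFB4 stood at 1.48, 4.10 and 2.62, and SLC2A4 at 0.98, 1.51 and 1.59. Of all genes, 5.35% in TR1, 4.87% in TR2 and 5.89% in TR3 lay more than 1.5 above 0, and 5.19%, 5.48% and 5.04% lay more than 1.5 below 0. PRKAG3 thus lay past 1.5 in opposite directions in TR1 and TR3, where the test of TR3 vs. TR1 on the counts gave an adjusted p of 0.886 in edgeR. Its difference of means in TR1, -0.41 on the variance-stabilised scale, was smaller than the SD of 0.82 between calves within groups. For PFKFB4 in TR2 the difference was 0.76 and the SD within groups 0.57.

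For neither sex nor dam age, which were covariates of the fit, did any of the 3 genes pass the test. PRKAG3 averaged 74.2 ± 24.5 CPM in females (n = 14) and 56.4 ± 30.5 in males (n = 24), a log2 fold change of 0.24 (SE 0.27, adjusted p = 0.936 in edgeR) between females and males that was 0.03 without the 5 calves with little MYH1, 4 of which were male. For SLC2A4 it was -0.02 (SE 0.12, adjusted p = 0.993) and for PFKFB4 0.03 (SE 0.20, adjusted p = 0.992). Without the calves with little MYH1 these became 0.24 (adjusted p = 0.458) and -0.24 (adjusted p = 0.766) in edgeR. Over all genes, 0.0309% were called between the sexes and 0% for dam age. Per year of dam age the log2 change was 0.09 for PRKAG3, -0.00 for SLC2A4 and -0.07 for PFKFB4, with adjusted p-values of 0.993, 0.995 and 0.993 in edgeR.

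Among the partners of PRKAG3 in the AMPK complex and the kinase assembly that activates it, 6 of 13 listed genes, PRKAG3 included, could be matched to an identifier, and all 6 were tested. Identifiers were matched through gene lists that the study drew from these calves, so here and below the tested genes of a list are not an independent sample of it. None passed an adjusted p of 0.05 in edgeR. In TR1 vs. CTR 1 of the 6 had a positive log2 fold change (median -0.17), in TR2 4 of 6 (median 0.19) and in TR3 6 of 6 (median 0.17), beside 6533, 6647 and 6113 of 12964 genes tested, whose medians were 0.00, 0.01 and -0.01. PRKAA2, the alpha 2 catalytic subunit, had log2 fold changes of -0.27, -0.08 and 0.22 in TR1, TR2 and TR3. PRKAB2, the beta 2 subunit, had -0.28, -0.16 and 0.01. Without the calves with little MYH1 the split in TR3 was 5 of 6, as it was without those with much NAMPT. STRADB and CAB39, which belong to the complex of the upstream kinase LKB1, had 0.58 and 0.43 in TR2 vs. CTR, with adjusted p-values of 0.545 and 0.548 in edgeR, and these 2 were the genes of the list with an unadjusted p under 0.05 there, beside 8.34% of all genes.

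Of 14 listed targets and partners of AMPK, 13 were tested. None passed an adjusted p of 0.05 in edgeR. Positive values were held by 9 of the 13 in TR1 (median 0.31), 9 in TR2 (median 0.48) and 8 in TR3 (median 0.14). ACACB is the acetyl-CoA carboxylase that AMPK phosphorylates to free fatty acid entry into mitochondria. It averaged 370 ± 186 CPM (SD) in TR2 against 203 ± 25.9 CPM in CTR, and the SD was 46.9 CPM in TR1 and 42.8 CPM in TR3. The log2 fold change in TR2 vs. CTR was 0.84 (SE 0.17, adjusted p = 0.263 in edgeR). ACACB was the 1 gene that DESeq2 called in this comparison (adjusted p = 0.0137). The part of the calves with much NAMPT in this comparison was not tested. ULK1, a kinase that starts autophagy, had 0.61 (SE 0.22, adjusted p = 0.545 in edgeR) in the same comparison. SREBF1, a driver of lipid synthesis, had 0.54, 0.25 and 0.24 in TR1, TR2 and TR3, and EIF4EBP1, a brake on translation, had 0.63, 0.65 and -0.35. Of the 13 genes, 3 with positive values had an unadjusted p under 0.05 in TR1, where 2.55% of all genes did. In TR2 there were 6 with positive and 2 with negative values, beside 652 positive and 429 negative of the 12964 genes (8.34%). In TR3 there were 1 with a positive value, CREB1 (0.40), and 1 with a negative value, ACACA (-0.35), beside 1.35% of all genes.

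Of the 6 listed glucose transporters, 4 were matched and tested, and none passed an adjusted p of 0.05 in edgeR. SLC2A1, the basal transporter GLUT1, averaged 1.83, 2.59, 3.26 and 1.96 CPM in CTR, TR1, TR2 and TR3, with a log2 fold change of 0.90 (SE 0.31, adjusted p = 0.507) in TR2 vs. CTR. SLC2A3, the transporter GLUT3, had -0.38, -0.03 and -0.14 in TR1, TR2 and TR3, and SLC2A12 had 0.01, -0.23 and -0.05. SLC2A1 and SLC2A4 had positive values in all 3 comparisons with CTR, and neither passed the adjusted test in any.

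At the hexokinase and phosphofructokinase step, where PFKFB4 acts, 7 of 12 listed genes were matched and tested. None passed an adjusted p of 0.05 in edgeR. In TR2 vs. CTR 3 of the 7 had an unadjusted p under 0.05 with a positive log2 fold change and 1 with a negative one, where 8.34% of all genes were under 0.05. PFKFB3, a relative of PFKFB4 with strong activity toward making fructose 2,6-bisphosphate, averaged 25.6, 33.1, 46.6 and 25.5 CPM in CTR, TR1, TR2 and TR3, and its log2 fold change in TR2 was 0.92 (SE 0.44, adjusted p = 0.589). PFKFB2 had -0.43 (SE 0.25, adjusted p = 0.621) in TR2. HK2, the insulin-responsive muscle hexokinase, had 0.53 (SE 0.24, adjusted p = 0.586), and PFKM, the muscle phosphofructokinase, had 0.29 (SE 0.16, adjusted p = 0.607) in edgeR. Within the PFKFB family the values in TR2 thus had both signs.

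Further down the pathway, 9 of 11 listed genes of glycolysis from GPI to LDHA were tested. None passed an adjusted p of 0.05 in edgeR and none had an unadjusted p under 0.05 in TR1, TR2 or TR3 vs. CTR. In TR1 vs. CTR all 9 had negative log2 fold changes, from -0.25 to -0.09, and in TR3 vs. CTR 8 of 9 had positive ones with a median of 0.08. ALDOA, aldolase, averaged 12941 CPM in CTR and 11269 in TR1, and LDHA, lactate dehydrogenase, 6036 and 5026 CPM. ENO3, the muscle enolase, had log2 fold changes of -0.18, -0.00 and 0.01 in TR1, TR2 and TR3, and PKM, pyruvate kinase, had -0.10, 0.18 and 0.18. Without the 5 calves with little MYH1 the split in TR1 was 3 positive and 6 negative, and without the 4 calves with much NAMPT it was the same 3 and 6. Of 10 glycogen genes 8 were tested and none passed an adjusted p of 0.05 in edgeR. Positive values were held by 4 of the 8 in TR1, 4 in TR2 and 7 in TR3. An unadjusted p under 0.05 was held by PYGB (0.72) and PPP1R3B (0.38) in TR1, by PPP1R3C (-0.83) in TR2 and by PPP1R3B (0.37) in TR3, beside 2.55%, 8.34% and 1.35% of all genes. PYGB is a glycogen phosphorylase, and PPP1R3B and PPP1R3C bring protein phosphatase 1 to glycogen. PHKA1, a subunit of phosphorylase kinase, had log2 fold changes of -0.12, 0.21 and 0.21 in TR1, TR2 and TR3. Of 9 regulators of glucose and fuel use, all tested, 6 had positive values in TR1 (median 0.42), 6 in TR2 (median 0.33) and 3 in TR3 (median -0.27), and none passed an adjusted p of 0.05 in edgeR. Among them TXNIP, a brake on glucose uptake, had -0.17, 0.23 and -0.58, and PDHA1, a subunit of pyruvate dehydrogenase, -0.20, -0.00 and 0.17.

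The fast fibre markers, which PRKAG3 is known to accompany, also lay below 0 throughout in TR1. In TR1 vs. CTR 9 of 9 had negative log2 fold changes (median -0.23), where 6431 of all 12964 genes did, and 7 of 9 were positive in TR3 (median 0.08), where 6113 of 12964 were. In TR1 1 of them, PVALB, was under an unadjusted p of 0.05, beside 2.55% of all genes, and none was under an adjusted p of 0.05 in edgeR. Their summed level had medians of 68149, 59492, 61526 and 78971 CPM in CTR, TR1, TR2 and TR3, with ranges of 45698 to 98615, 17929 to 88669, 49999.5 to 92344 and 33165 to 99209 CPM. It was 17929 to 50515 CPM in the 5 calves with little MYH1 and 49999.5 to 99209 CPM in the others. MYH1, which set these calves apart, is 1 of the 9 genes summed, so this split is no separate measure of them. Of 9 listed slow fibre markers 6 were tested, and MYH7, TNNT1 and TNNI1 had no matched identifier, so the sum covers the list only in part. Its largest parts were ATP2A2 (mean 2529 CPM) and CSRP3 (mean 1187 CPM). CSRP3 averaged 2243 ± 3452 CPM (SD) in TR2 and 776 ± 381 CPM in CTR. The 6 markers summed to medians of 4340, 4230, 5438 and 4950 CPM in CTR, TR1, TR2 and TR3. This sum had a median of 7911 CPM in the 5 calves with little MYH1 and 4412 CPM in the others. In the calves with much NAMPT the median was 7246 CPM, against 4433 CPM in the others. The ranges overlapped in both splits. Without the 5 calves with little MYH1 the fast fibre markers had 0, 0 and 6 positive values of 9 in TR1, TR2 and TR3, in place of 0, 3 and 7. The part of fibre makeup in the group levels of PRKAG3 was not tested.

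The 12 genes known to respond to fasting and glucocorticoids, listed because several of them govern fuel choice, all had positive log2 fold changes in TR1 (median 0.62) and in TR2 (median 0.85), and 3 of 12 did in TR3 (median -0.32). None passed an adjusted p of 0.05 in edgeR, and 4 had an unadjusted p under 0.05 in TR2, where 8.34% of all genes did. PDK4, the kinase that turns off pyruvate dehydrogenase, averaged 447 ± 264, 843 ± 1291, 895 ± 827 and 314 ± 114 CPM (SD) in CTR, TR1, TR2 and TR3. The highest TR1 value was 4223 CPM (A2052), and without the calves with much NAMPT the means of TR1 and TR2 were 420.3 ± 263 CPM (n = 8) and 543 ± 522 CPM (n = 7). FKBP5, a glucocorticoid-induced chaperone partner, had a log2 fold change of 1.49 (SE 0.44, adjusted p = 0.497) in TR2, and NAMPT 1.64 (SE 0.41, adjusted p = 0.497). Without the 4 calves with much NAMPT the list's split was 5 positive and 7 negative in TR1 and 10 positive and 2 negative in TR2 (median 0.27), with 0 genes under an unadjusted p of 0.05 in TR2. Over all genes the number under 0.05 in TR2 was 460 of 13008 without these calves and 1081 of 12964 with them. NAMPT, which set these calves apart, is 1 of the 12 genes of the list.

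**Figure D3:**
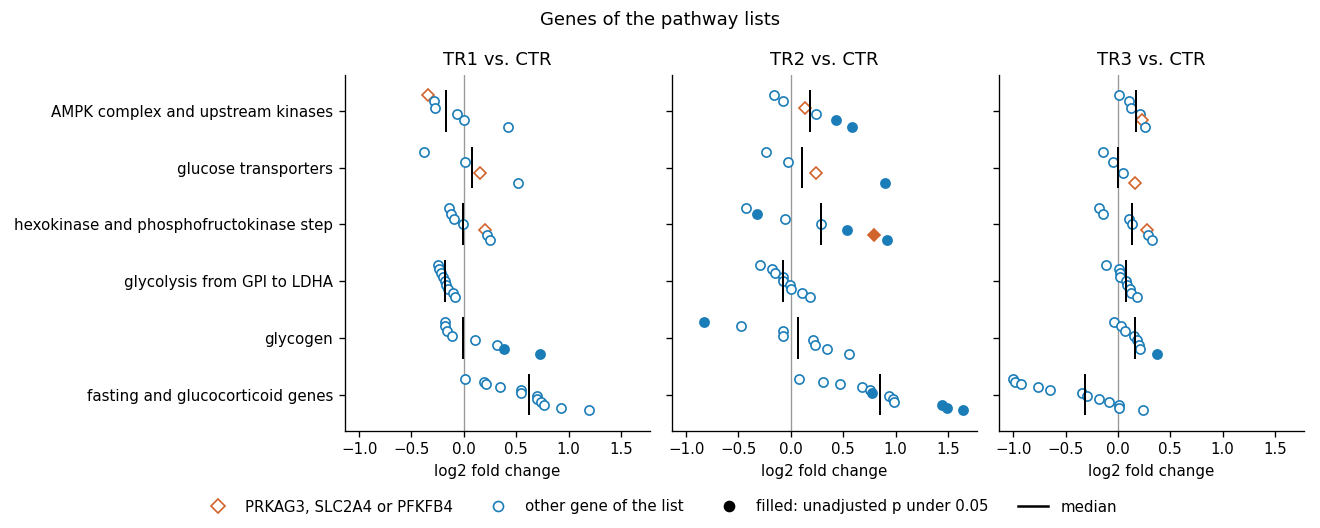
Log2 fold changes against CTR of the tested genes of 6 lists in TR1, TR2 and TR3. Diamonds are PRKAG3, SLC2A4 or PFKFB4, circles are other genes, filled symbols have an unadjusted p under 0.05, and vertical bars are medians. All 9 glycolysis genes lie below 0 in TR1, and PFKFB4, at 0.79, is the filled diamond in TR2.

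On TMM-scaled log2 CPM, none of the 3 pairs among PRKAG3, SLC2A4 and PFKFB4 passed an adjusted p of 0.05 across all 38 calves. For 2 of them the call changed with the calves kept. For PRKAG3 and SLC2A4 it also changed over all 38 calves, on residuals and with library size scaling. Over the 38 calves, on log2 CPM, PRKAG3 and SLC2A4 had Pearson's r = -0.33 (permutation p = 0.0398, adjusted over 16 pairs 0.0685) and Spearman's rho = -0.35 (permutation p = 0.0325, adjusted 0.0650). Without A2035 and A2040, the 2 calves farthest from the median of PRKAG3, r was -0.14 (permutation p = 0.432), and without the 5 calves with little MYH1, which include both, it was -0.24 (permutation p = 0.183). After dam age, sex and treatment group were taken out, it was -0.41 (adjusted permutation p = 0.0194), and without the calves with much NAMPT -0.49 (adjusted permutation p = 0.0091). PRKAG3 and PFKFB4 had r = 0.29 (permutation p = 0.0779, adjusted 0.104) and rho = 0.17 (permutation p = 0.318, adjusted 0.364), with r of 0.53, 0.22, -0.34 and 0.51 in CTR, TR1, TR2 and TR3. Their r was 0.47 (adjusted permutation p = 0.0091) without the calves with much NAMPT, and without those with little MYH1 it was -0.00015. SLC2A4 and PFKFB4 had r = -0.02 (permutation p = 0.910, adjusted 0.942) and rho = -0.03 (permutation p = 0.850, adjusted 0.907).

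Of the 13 pairs that set a member against another gene, 6 passed an adjusted permutation p of 0.05. PRKAG3 and PRKAA2, the gamma 3 and alpha 2 subunits of the kinase, had r = 0.63 (permutation p = 1e-05, the smallest that 100000 resamples can give, adjusted 8e-05) and rho = 0.65 (permutation p = 2e-05, adjusted 0.00016). The relation was present within each group, with r of 0.55, 0.41, 0.82 and 0.80 in CTR, TR1, TR2 and TR3, and it was 0.64 without the 2 calves farthest from the PRKAG3 median. It was 0.62 without the 5 calves with little MYH1. PRKAG3 and MYH3, the embryonic myosin heavy chain, had r = 0.53 (permutation p = 0.00062, adjusted 0.00248) and rho = 0.44 (permutation p = 0.00623, adjusted 0.0249), but r was 0.39 without the 2 farthest calves and 0.23 (permutation p = 0.195) without the 5 calves with little MYH1. PRKAG3 and PVALB, parvalbumin of fast fibres, had r = 0.39 (permutation p = 0.0162, adjusted 0.0432) and rho = 0.41 (permutation p = 0.0114, adjusted 0.0365), with r of 0.56, -0.36, 0.46 and 0.41 in CTR, TR1, TR2 and TR3. This call was lost with library size scaling, with a prior count of 0.5, without the calves with little MYH1 and without those with much NAMPT (adjusted permutation p = 0.0511, 0.0587, 0.0555 and 0.0512), and without CTR calf A2035 (0.0874). In these fits r was lower than over all calves, except without the calves with little MYH1, where it was higher. PVALB averaged 1.17 CPM. PRKAG3 and PPARGC1A had r = -0.23 (permutation p = 0.167, adjusted 0.191) and rho = -0.20 (permutation p = 0.223, adjusted 0.298). The pair passed without the calves with much NAMPT, with r = -0.55 (adjusted permutation p = 0.00564), and without those with little MYH1 r was -0.02.

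SLC2A4 and PPARGC1A, the coactivator that drives mitochondrial gene expression and is known to raise GLUT4, had r = 0.52 (permutation p = 0.00096, adjusted 0.00307) and rho = 0.40 (permutation p = 0.0145, adjusted 0.0388). Within groups r was 0.88, 0.89, 0.38 and -0.02 in CTR, TR1, TR2 and TR3. Without the 2 calves farthest from the SLC2A4 median it was 0.37 (permutation p = 0.0289), and without the 5 calves with little MYH1 it was 0.25 (permutation p = 0.167). With dam age, sex and treatment group taken out, r was 0.72 (adjusted permutation p = 8e-05) and rho 0.67 over the 38 calves. The same residuals, fitted with the calves with little MYH1 included, gave a rho of 0.56 over the other 33. Residuals fitted without those calves were not computed. SLC2A4 did not pass with HK2 (r = -0.26), KLF15 (r = -0.31) or MEF2C (r = 0.01), with adjusted permutation p-values of 0.134, 0.0847 and 0.942, and Spearman's rho was -0.24, -0.01 and -0.22.

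PFKFB4 and its relative PFKFB3 had r = 0.58 (permutation p = 0.00019, adjusted 0.00101) and rho = 0.58 (permutation p = 0.00027, adjusted 0.00144). The relation held the same sign within groups, with r of 0.41, 0.49, 0.51 and 0.73 in CTR, TR1, TR2 and TR3, and was 0.53 without the 2 farthest calves. With NAMPT, which fell into separate ranges over the calves, PFKFB4 had r = 0.69 over the 34 calves in the lower range (permutation p = 3e-05, adjusted 0.00048). The 4 calves in the upper range were too few for a value of their own. Within the treatment groups r with NAMPT was 0.88 in CTR and 0.47 in TR3, which hold no calf of the upper range. PFKFB4 did not pass with PDK4 (r = 0.37, adjusted permutation p = 0.0537), HK2 (r = 0.35, adjusted 0.0627) or KLF15 (r = 0.33, adjusted 0.0685), for which rho was 0.35, 0.17 and 0.20.

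**Figure D4:**
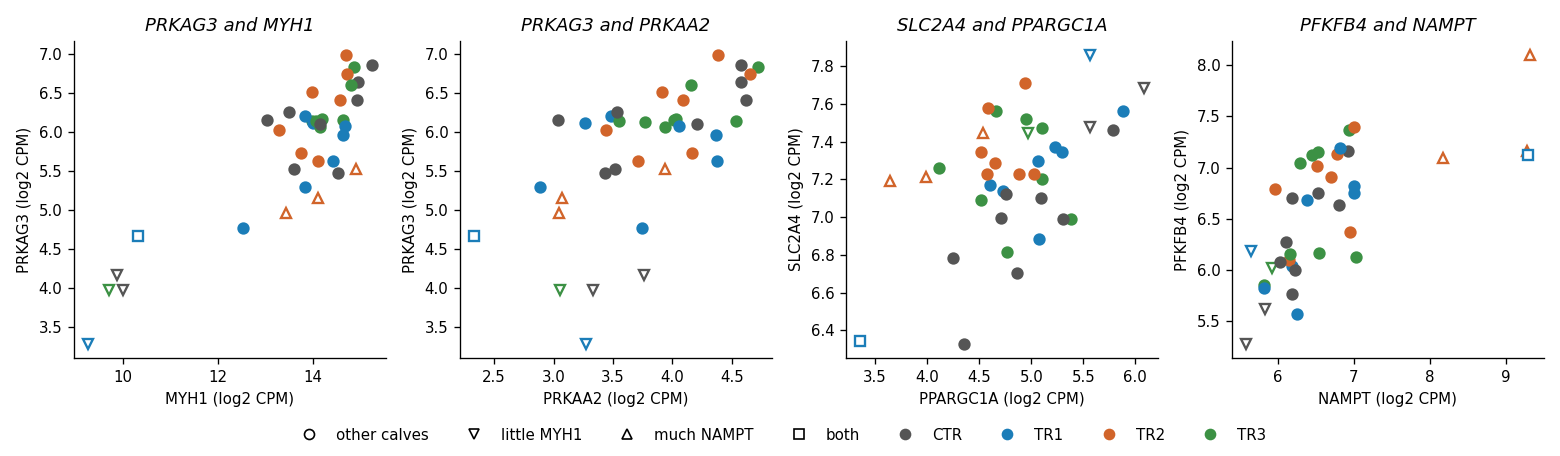
Each calf's log2 CPM of PRKAG3 against MYH1 and PRKAA2, of SLC2A4 against PPARGC1A and of PFKFB4 against NAMPT (all axes log2), coloured by treatment group, with open symbols for the 5 calves with little MYH1 and the 4 with much NAMPT. The calves with little MYH1 lie apart on the left of the first panel at the lowest PRKAG3 levels, and PFKFB4 follows NAMPT among the 34 calves of the lower NAMPT range (r = 0.69).

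Finally, the genes most like each member were ranked by Spearman's rho over the 38 calves, on residuals after dam age, sex and treatment group, among 2579 genes with a symbol and a mean of at least 1 CPM. These genes carry a symbol because the study listed them from the same calves, and the values are a description. For PRKAG3 the 5 highest were NPNT (0.77), TTC39A (0.77), SHISA2 (0.76), MYH1 and ASB16 (0.74). The residuals were fitted once over all 38 calves. The calves with little MYH1 thus still shaped the values given for 33 calves, here and below. MYH1 lay in separate ranges, so its value is given for the 33 calves of the upper range, where rho was 0.64. On log2 CPM without that adjustment, PRKAG3 and MYH1 had rho = 0.48 and r = 0.57 in those 33 calves. On residuals the other 4 genes had 0.68, 0.68, 0.69 and 0.61 in the same calves. The 3 lowest were FNDC4 (-0.71), PRSS23 (-0.71) and NFE2L1 (-0.71).

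For SLC2A4 the 5 highest were TOMM40L (0.71), a mitochondrial import channel, PPARGC1A (0.67), SPX (0.66), NR1I3 (0.66) and MRPL48 (0.65), a protein of the mitochondrial ribosome, and over the 33 calves they had 0.65, 0.56, 0.62, 0.54 and 0.58. The 3 lowest were SKI (-0.75), MLXIP (-0.66), a glucose-sensing transcription factor, and FAM8A1 (-0.63). For PFKFB4 the 5 highest were FKBP5 (0.71), ATP10A (0.71), CBR3 (0.67), OTUD6B (0.64) and DUSP7 (0.64), with 0.73, 0.72, 0.65, 0.56 and 0.71 over the 33 calves. The 3 lowest were GDF11 (-0.68), MYL6B (-0.65) and SLX4IP (-0.64). No gene stood among the 5 highest of more than 1 member.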

How the data were processed

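The deposited table holds raw counts per gene for 38 *Longissimus dorsi* biopsies. The authors aligned strand-specific paired-end reads to ARS-UCD1.2 with STAR 2.7.3a and counted reads per gene against Ensembl release 100. The count column used is not given in the sources used here. Each calf was 1 replicate, and no 2 calves of a group agreed within sampling noise (smallest chi-square per degree of freedom 17.0). Gene symbols came from the study's supplementary gene lists (2878 identifiers).

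Counts were filtered with filterByExpr (12964 genes), TMM-normalised and fitted with edgeR 4.0.16 in R 4.3.3 (quasi-likelihood F-test, dam age, sex and treatment group, all 38 calves), with p-values adjusted by Benjamini-Hochberg over all genes and log2 fold changes as first-named minus second-named group. The fit was tested on simulated data, and no result given here rests on that test. Correlations used log2 CPM (prior count 2) with two-sided permutation tests of 100000 resamples, adjusted over 16 pairs (scipy 1.17.1). Alternatives were DESeq2 1.42.0, library size scaling, no filter, other covariates, robust dispersion, fits to only the pair of groups in question, and leaving out each calf. Leaving out the calves with under 2000 CPM of MYH1 or over 200 CPM of NAMPT was added after seeing the data. The 3 genes, the lists and the pairs were chosen with earlier results of these calves known. Named genes were the members, up to 4 of each list (relatives of a member first, then the highest mean CPM) and the most and least alike genes. STRADB, SLC2A1, FKBP5, NAMPT, PYGB, PPP1R3B, PPP1R3C, CREB1 and ACACA were named as well, after their values were seen. MYH7, TNNT1 and TNNI1 were named as listed genes without a matched identifier.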

Additional observations from a re-analysis of the deposited data

Results flagged for a closer look

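Among the 12 combinations of a member and a treatment group, 2 held a calf farther from its neighbour in CPM than Dixon's 95% limit for its group size. For normally distributed values, chance would set apart about 1 in 20. The limit was applied to CPM only and not to log2 CPM. On log2 CPM, PRKAG3 in TR3 ran from 3.97 to 6.83, with 6.06 next above the lowest. PFKFB4 in TR2 ran from 6.10 to 8.10, with 7.40 next below the highest. TR3 calf A2033 had 15.6 CPM of PRKAG3, and the next lowest calf of TR3 had 66.6 CPM. It is one of the 5 calves with little MYH1 (827 CPM), and without it the log2 fold change of PRKAG3 in TR3 vs. CTR was 0.39 in place of 0.23, while without CTR calf A2034 it was 0.12 and with only TR3 and CTR in the fit 0.028. TR2 calf A2099 had 274 CPM of PFKFB4, and the next highest calf of TR2 had 168 CPM. It is one of the 4 calves with much NAMPT (635 CPM), and without it the log2 fold change of PFKFB4 in TR2 vs. CTR was 0.62 in place of 0.79.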

How the results depend on the processing

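No member passed an adjusted p of 0.05 in any comparison under any alternative. The 9 values of the standardized difference are in units of the spread over genes, so the spread between calves cannot judge how far they moved. SLC2A4 in TR2 (1.51) and PFKFB4 in TR1 (1.48) lay close to the limit of 1.5. PFKFB4 in TR2 vs. CTR lay between 0.56 and 0.93 (adjusted p 0.269 to 0.999), SLC2A4 in TR2 between 0.17 and 0.46, SLC2A4 in TR1 between 0.07 and 0.36 and PRKAG3 in TR1 between -0.49 and -0.13. In the following results the sign or the call changed, and the cause was not tested. With library size scaling the log2 fold change was -0.030 for SLC2A4 in TR2 vs. TR1, -0.035 for SLC2A4 and -0.061 for PFKFB4 in TR3 vs. TR1. With only the groups compared it was -0.043 for PFKFB4 in TR3 vs. TR1 and -0.025 for PRKAG3 in TR3 vs. TR2. Without the calves with little MYH1 it was -0.046 for PFKFB4 in TR1 vs. CTR, -0.16 for PRKAG3 in TR2 vs. CTR, -0.18 for SLC2A4 in TR3 vs. TR1, and, between females and males, 0.24 for SLC2A4 and -0.24 for PFKFB4. Without the calves with much NAMPT it was -0.11 for SLC2A4 in TR3 vs. TR1, -0.18 for PRKAG3 in TR3 vs. TR2 and 0.057 for SLC2A4 between the sexes, which was 0.0044 with dam age as a factor.

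Leaving out each calf in turn gave -0.023 to 0.33 for PRKAG3 in TR2 vs. CTR, with A2035 and A2066 turning it, and -0.023 to 0.27 in TR3 vs. TR2 (A2023 and A2102). In TR3 vs. TR1 it gave -0.12 to 0.11 for SLC2A4 and -0.095 to 0.20 for PFKFB4. The number of genes called was 0 to 1 in TR1 vs. CTR (1 without A2075 or A2096) and 0 to 1 in TR2 vs. CTR (1 without A2068). DESeq2 called 1 gene in TR2 vs. CTR. Without a filter, edgeR called 2 genes in TR3 vs. CTR, 11 in TR3 vs. TR1, 4 in TR3 vs. TR2, 13 for any difference, 11 between the sexes and 3 for dam age, for which 1 was called with sex left out. Between the sexes 2 were called without the calves with little MYH1.

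Among the correlations, r of PRKAG3 and SLC2A4 passed with residuals (-0.41), library size scaling (-0.47), without the calves with much NAMPT (-0.49) and at the low end of leaving out each calf (-0.49 without A2052, to -0.22). On residuals SLC2A4 also passed with HK2 (-0.41) and KLF15 (-0.44). With library size scaling PFKFB4 passed with HK2 (0.37), KLF15 (0.40) and PDK4 (0.41), PRKAG3 and PVALB did not (0.35), SLC2A4 and PFKFB4 turned to 0.023 and SLC2A4 and MEF2C to -0.13. PRKAG3 and PVALB did not pass with a prior count of 0.5 (0.36) nor without the calves with little MYH1 (0.41) or much NAMPT (0.37), and leaving out each calf gave 0.34 (A2035) to 0.43. Without the calves with little MYH1, PRKAG3 with MYH3 (0.23) and SLC2A4 with PPARGC1A (0.25) did not pass, and the values were -0.00015 for PRKAG3 and PFKFB4, 0.30 for SLC2A4 and PFKFB4, 0.074 for SLC2A4 and KLF15 and -0.23 for SLC2A4 and MEF2C. Without the calves with much NAMPT, PRKAG3 passed with PFKFB4 (0.47) and PPARGC1A (-0.55), and SLC2A4 had 0.054 with PFKFB4 and -0.41 with MEF2C. Leaving out each calf gave -0.13 to 0.065 for SLC2A4 and PFKFB4, -0.36 to 0.14 for SLC2A4 and MEF2C, 0.21 to 0.42 for PFKFB4 and HK2 and 0.33 to 0.42 for PFKFB4 and PDK4.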
